A study of Mus musculus with 18 samples.

Results

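The data described here are the transcriptomes of lungs in which Wnt5a was targeted in the mesenchyme by Dermo1-Cre. They were set apart by table and column. The experiment comprises 6 of the 18 libraries of the series, 3 from control and 3 from mutant lungs. Of the 23420 genes listed, 14277 were compared, those that reached 10 normalized counts in 3 or more of these 6 libraries. The study asks how noncanonical Wnt signaling sets the position and direction of lung branches. Mouse embryonic lungs were sequenced in bulk in 3 experiments, each with its own controls, and values of the other 2 experiments are given only beside those of the mesenchymal deletion.

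Lungs were taken at E12.5. The control genotype is given as Wnt5af/+; Dermo1Cre and the mutant genotype as Wnt5af/f; Dermo1Cre. The controls were thus not wild type. Both groups carried the Cre, and the controls had a floxed copy of Wnt5a beside the wild-type copy, so that recombined cells of a control lung keep a single working copy. Dermo1 is an older name of Twist2, a gene of mesenchymal progenitors. The Cre was placed in the Twist2 locus, which leaves that allele without its own coding sequence, and it acts in the mesenchyme of many organs, not in the lung alone. The labels give no copy number for the Cre allele. The study writes the sequenced mutants as Wnt5af/f; Dermo1Cre/+, heterozygous for the Cre, and gives no genotype for their controls. The labels also do not say how many embryos made up a library. Replicates are therefore separate libraries, and the p-values measure the spread between them, which may be partly technical. In the 2 other experiments, Wnt5af/+; Sox9Cre controls were set against Wnt5af/f; Sox9Cre mutants at E13.5 (targeting of the epithelium), and Vangl1-/- controls against Vangl1-/-; Vangl2-/- mutants at E12.5.

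WNT5A is a secreted ligand of the noncanonical branch of Wnt signaling. It binds ROR2, RYK and Frizzled receptors and feeds into the planar cell polarity (PCP) pathway, in which VANGL, CELSR and Frizzled proteins orient cells within a sheet and act on the actin cytoskeleton. In the early lung, mesenchyme surrounds branching epithelial tubes, and part of it differentiates into the smooth muscle that wraps the airways. Nerves derived from the neural crest and the vagus follow that smooth muscle into the lung.

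The 6 libraries held between 15945393 and 16102180 reads on genes. The libraries were not alike in tissues other than lung. Summed over 36 listed cardiomyocyte transcripts, the 3 controls held 2252, 9964 and 29518 normalized counts and the 3 mutants 4696, 6872 and 1704. Of the 36, 29 were tested. All 29 had a log2 fold change below 0, and 0 of them had an unadjusted p under 0.05 by limma, 12 by edgeR's quasi-likelihood test and 1 by DESeq2. Skeletal muscle transcripts summed to between 195 and 1979 in the controls and between 283 and 2790 in the mutants, with the highest sums in control 3 and mutant 2. These libraries also held the most of Krt5, a keratin of the esophageal and tracheal basal layer, at 118 and 87.3 normalized counts, against 0.999 to 3.03 in the other 4. Xist, made by female cells, and the Y-linked Ddx3y were both present in control 2 (6440.4 and 904) and in mutant 2 (15523 and 293). Those 2 libraries therefore held RNA of both sexes, and the counts below are also given without them where that matters. Control 1 was female, with Xist at 18562 and no reads of the Y-linked Eif2s3y. Control 3, mutant 1 and mutant 3 were male, with Xist at 18.8, 20.2 and 5.99 and Ddx3y at 1166, 1580 and 1290. Leaving out control 2 and mutant 2 thus sets a female and a male control against male mutants only. That fit does not balance sex, and the part of sex in the differences was not tested.

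Wnt5a itself was lower in the mutants, without passing the test. The gene lies at chr14:28504750-28527448 on the plus strand of GRCm38. It had 472, 429.6 and 489 normalized counts in the controls and 317, 436 and 229.7 in the mutants. Mutants 1 and 3 lay under the lowest control, and mutant 2 lay inside the range of the controls. The fold was 0.684, from group means of log2(normalized count + 1), and the log2 fold change was −0.55 with a standard error of 0.19. By limma the unadjusted p was 0.0157 and the adjusted p 0.406, and the exact two-sided permutation p was 0.2, where 3 libraries against 3 allow 0.1 at the least. The size depended on single libraries: the log2 fold change was −0.78 without mutant 2 and −0.32 without mutant 3. Without the 2 libraries of both sexes it was −0.83 (unadjusted p 5.60e-04 and adjusted p 0.375 by limma). Reads are counted over the whole gene, so that transcripts of a recombined allele that lack the floxed exon still count, and Wnt5a made outside the cells with Cre activity counts as well.

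Twist2, the locus of the Cre, was lower in every mutant than in every control. It lies at chr1:91801461-91848028 on the plus strand of GRCm38. The controls had 319, 297 and 243 normalized counts and the mutants 189.6, 187 and 145. The groups did not overlap. The log2 fold change was −0.72 (SE 0.14, unadjusted p 4.44e-04), with an adjusted p of 0.186 by limma and 0.00429 by DESeq2 on the recovered reads. In the Vangl2 mutants, which carry no Dermo1-Cre by their labels, Twist2 was also lower (511 against 382 on average, log2 fold change −0.42), and in the Sox9-Cre mutants it was level (338 against 340.5). Whether the copy number of the Cre allele, which the study gives for the mutants only, contributed to the difference was not tested.

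**Figure D1:**
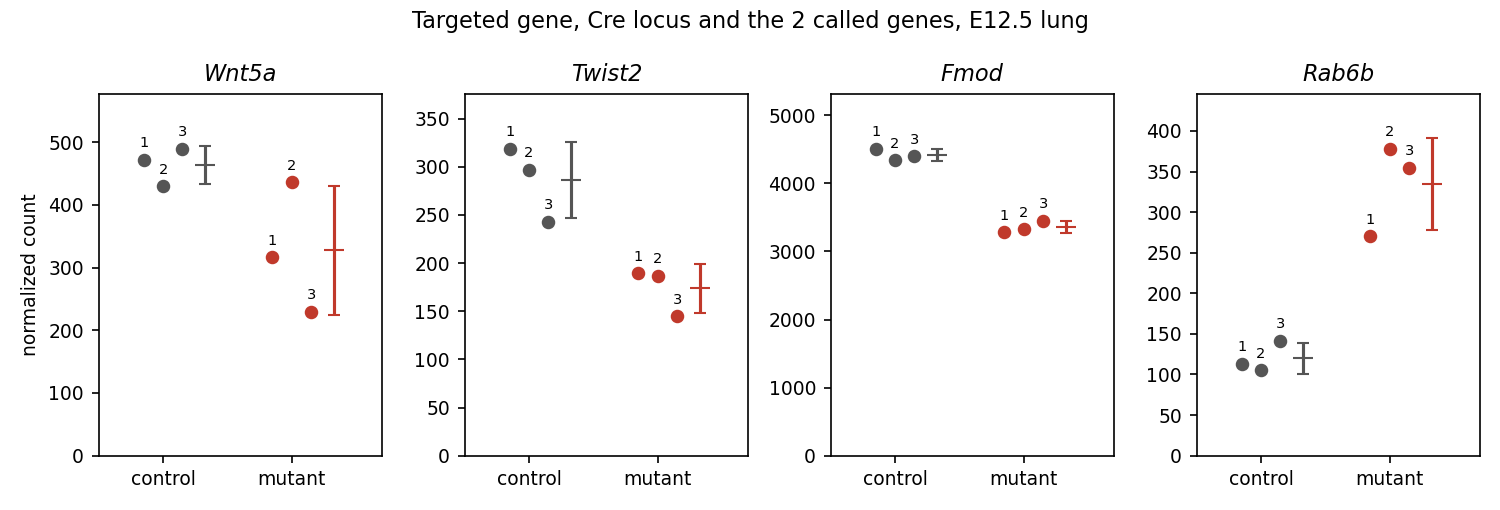
Normalized counts (vertical axes, each starting at 0) of Wnt5a, Twist2, Fmod and Rab6b in the 3 control (grey) and 3 mutant (red) libraries, numbered by replicate, with the mean and SD beside the points. For Wnt5a, mutant 2 (436) sits among the controls (429.6 to 489). For the other 3 genes the groups do not overlap.

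Of the 14277 genes tested, 2 passed an adjusted p of 0.05 by limma, 0.0140% of them. These were Rab6b, which rose, and Fmod, which fell. edgeR's quasi-likelihood test made 2 calls, the same genes, and put 1458 genes at an unadjusted p under 0.05. DESeq2 on the recovered reads called 100 genes, 77 higher (0.539% of the genes tested) and 23 lower (0.161%). At an unadjusted p under 0.05 by limma, 774 genes were higher in the mutants (5.42%) and 679 were lower (4.76%). In 1092 genes every mutant was above every control (7.65%), and in 1131 every mutant was below (7.92%). These shares are the background for the counts in gene lists below, and the median log2 fold change of all genes was 0.00.

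Rab6b encodes a small GTPase of the Golgi that is made mainly in neurons. It lies at chr9:103111787-103185276, plus strand. Rab6b had 113, 105 and 142 normalized counts in the controls and 270.3, 378 and 354 in the mutants. The fold was 2.76 and the log2 fold change 1.47 (SE 0.15, adjusted p 0.0230 by limma). The lowest mutant lay far above the highest control. Neither this call nor that of Fmod held without control 1, control 2 or mutant 3 (adjusted p between 0.120 and 0.295 by limma), while the log2 fold changes stayed between 1.38 and 1.43 for Rab6b and between −0.42 and −0.38 for Fmod. Without the 2 libraries of both sexes the adjusted p of both was 0.145.

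Fmod encodes fibromodulin, a small proteoglycan that binds collagen fibrils. It lies at chr1:134037254-134048277, plus strand. The controls had 4509, 4344 and 4395 normalized counts and the mutants 3281, 3326 and 3452. The log2 fold change was −0.40 (SE 0.04, adjusted p 0.0230 by limma). Its spread within groups was small (SD 84.7 in the controls and 88.6 in the mutants), so that the fold of 0.759 lay outside it. In the Sox9-Cre experiment Fmod had a log2 fold change of −0.17 (unadjusted p 0.0111) with groups that did not overlap, and in the Vangl2 mutants one of 0.01.

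**Figure D2:**
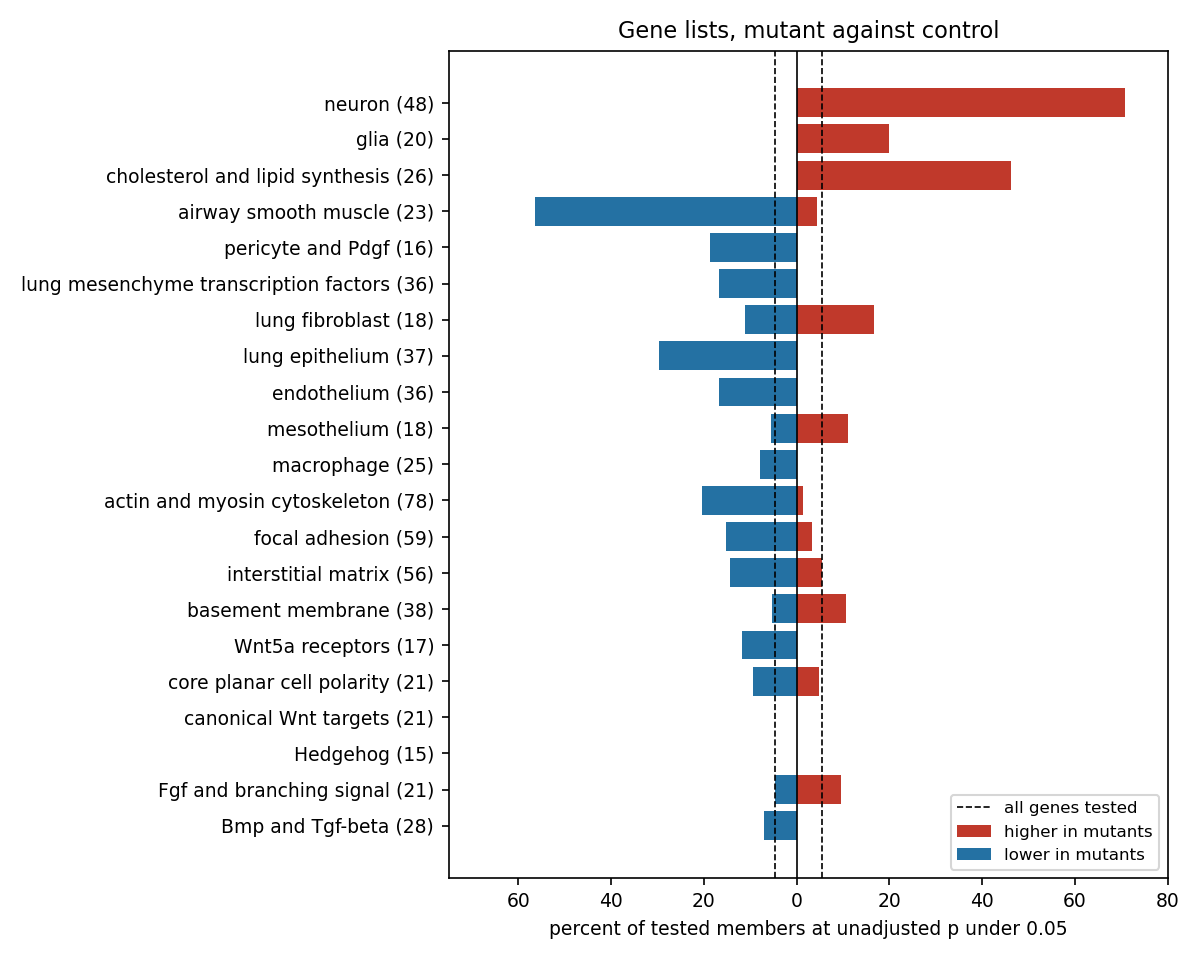
Percent of the tested members of selected gene lists (number tested in brackets) with an unadjusted p under 0.05 by limma, higher (red, to the right) or lower (blue, to the left) in the mutants. Dashed lines mark the shares over all genes, 5.42% and 4.76%. Neuronal genes reach 70.8% higher, sterol genes 46.2% higher and airway smooth muscle genes 56.5% lower.

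Neuronal transcripts were higher in the mutants. Of 57 listed neuronal genes, 48 were tested, 34 were higher at an unadjusted p under 0.05, and none was lower. In 32 every mutant was above every control, against 7.65% of all genes. Its median log2 fold change was 0.93. DESeq2 called 19 of the 48, which is 19 of its 77 higher calls. Nothing in the list but Rab6b passed the adjusted limma test. Summed over the list, the controls held 5376, 5493 and 6493 normalized counts and the mutants 7830.2, 12042 and 12384. The mutants stood above the controls, and mutant 1 was the nearest to them. Of the 48, 2 reached 10 normalized counts only in mutants (Cplx1 and Slc18a3) and thus had to differ. Of the other 46, 32 were higher at an unadjusted p under 0.05. Members share the cells they come from, and are not independent measurements.

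Neuronal cytoskeleton genes were among the higher members. Nefl, the light neurofilament subunit, had 86.2, 68.2 and 99.1 normalized counts in the controls and 195, 435 and 479 in the mutants (log2 fold change 2.03, SE 0.30). Nefm, the medium subunit, had 177, 181 and 238 in the controls and 319, 531 and 699 in the mutants (1.31, SE 0.24). Both passed DESeq2 (adjusted p 3.37e-04 and 0.0198). Prph, the peripherin of peripheral neurons, had 43.1, 28.1 and 71.3 in the controls and 125, 380.1 and 456 in the mutants (2.63, SE 0.46). Tubb3, neuronal beta-tubulin, had 68.1, 74.3 and 169 in the controls and 207, 534 and 623 in the mutants (2.10, SE 0.43). Here control 3 came close to mutant 1, and the adjusted p was 0.189 by limma and 0.0665 by DESeq2. Mapt, which encodes the microtubule protein tau, had a log2 fold change of 1.94 (SE 0.31), Ina (alpha-internexin) one of 2.11 (SE 0.46) and Stmn3, a stathmin that destabilizes microtubules, one of 1.98 (SE 0.48).

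Members of the list that act in transport and at synapses did not all behave alike. Syt1, the synaptotagmin that senses calcium at synapses, had 19.04, 21.1 and 49.5 normalized counts in the controls and 46.4, 64.5 and 48.9 in the mutants (log2 fold change 0.93, SE 0.34), with control 3 above mutants 1 and 3. Kif5c, a kinesin heavy chain of axonal transport, had 93.2, 111 and 116 normalized counts in the controls and 209, 315 and 367 in the mutants (log2 fold change 1.43, SE 0.19, adjusted p 0.107 by limma and 7.52e-10 by DESeq2). Kif5a had 97.2, 73.3 and 92.1 in the controls and 165, 331 and 374 in the mutants (1.64, SE 0.27). Snap25, a SNARE protein of vesicle fusion, had 15.03, 17.1 and 26.8 in the controls and 42.4, 141 and 139.8 in the mutants (2.25, SE 0.44). Syt4, a synaptotagmin, had 12.02, 22.1 and 32.7 in the controls and 63.5, 198 and 216 in the mutants (2.70, SE 0.47). Syp, synaptophysin of synaptic vesicles, which was not in the list and was named after its values were seen, had a log2 fold change of 1.08 (SE 0.25). In these genes other than Syt1 the groups did not overlap, and mutant 1 was the lowest mutant. Over the 77 higher calls of DESeq2, mutant 1 was the lowest mutant in 68.

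Genes of both sensory and autonomic neurons were among those higher, some of them (Slc17a6, Htr3a, Slc5a7, Tlx2, Ache and Chrna3) outside the list of 48. Slc17a6, the vesicular glutamate transporter of sensory neurons, passed the filter on low values only through the mutants, so that it had to differ, and its values are given as a description. It had 5.01, 0 and 8.92 normalized counts in the controls and 39.3, 101 and 127 in the mutants. P2rx3, an ATP-gated channel of sensory neurons, had 21.04, 16.1 and 20.8 in the controls and 41.3, 159.8 and 164 in the mutants (log2 fold change 2.37, SE 0.46). Scn9a, a sodium channel of peripheral neurons, had 14.03, 7.03 and 15.9 in the controls and 35.3, 97.3 and 132 in the mutants (2.62, SE 0.47). The groups of these 3 genes did not overlap. Htr3a, a subunit of the serotonin-gated channel, had 4.01, 9.03 and 17.8 in the controls and 45.4, 72.4 and 79.9 in the mutants (2.73, SE 0.45).

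On the autonomic side, Ret, the receptor of GDNF, had 127, 109 and 129 normalized counts in the controls and 164, 228 and 229.7 in the mutants (0.75, SE 0.15). Slc5a7, the choline transporter of cholinergic neurons, had 23.05, 20.1 and 27.7 in the controls and 47.4, 118 and 68.9 in the mutants (1.60, SE 0.31). In both genes too, every mutant was above every control. Tlx2, a homeobox gene of enteric neurons, had a log2 fold change of 1.88 (SE 0.41). Slc5a7, Tlx2, Ache and Chrna3 were named after their values were seen. Ache, acetylcholinesterase, and Chrna3, a nicotinic receptor subunit, had log2 fold changes of 1.74 (SE 0.58) and 1.75 (SE 0.50) with groups that overlapped. Dbh, which makes noradrenaline, had 7.01, 12.04 and 13.9 in the controls and 21.2, 24.8 and 10.98 in the mutants and overlapped. Hand2, a factor of sympathetic neurons, had 39.1, 98.4 and 220.0 in the controls and 66.6, 81.4 and 17.97 in the mutants. Hand2, which is also a gene of heart and foregut mesenchyme, was the single member of the list with a log2 fold change below 0 (−1.02, SE 0.65).

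**Figure D3:**
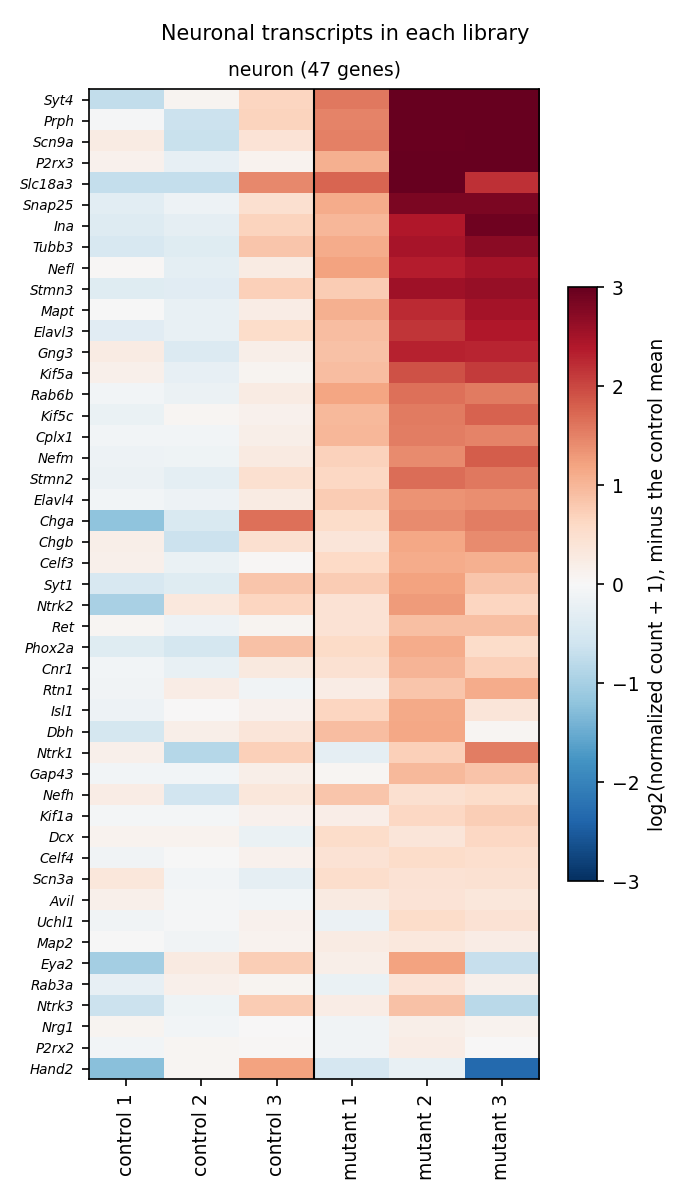
Heat map of 47 of the 48 neuronal genes tested (rows, ordered by log2 fold change) in the 6 libraries (columns). Color gives log2(normalized count + 1) minus the mean of the controls, red for higher and blue for lower, with the scale ending at 3. Mutants 2 and 3 are red over most rows, mutant 1 is paler, and the row of Hand2 at the bottom goes the other way.

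Of 20 glial genes tested, 4 were higher at an unadjusted p under 0.05 (5.42% of all genes were) and none was lower, with a median log2 fold change of 0.17. L1cam, an adhesion molecule of axons and Schwann cells, had 65.1, 47.2 and 76.3 normalized counts in the controls and 101, 266 and 282 in the mutants (1.65, SE 0.35), and Fabp7 had 54.1, 64.2 and 79.3 in the controls and 81.7, 145 and 152 in the mutants (0.89, SE 0.24). Sox10, which defines glia and neural crest, had 73.2, 59.2 and 87.2 in the controls and 50.4, 132 and 95.9 in the mutants, and the groups overlapped. Erbb3, the neuregulin receptor of Schwann cells, had 564, 541 and 525 in the controls and 525, 552 and 549 in the mutants (−0.00, SE 0.06). Sums over the 23 listed glial genes ran from 8115 to 9119 in the controls and from 8793 to 9925 in the mutants and overlapped.

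Of 54 axon guidance and neurotrophic genes tested, 4 were higher and 1 lower at an unadjusted p under 0.05 (background 5.42% and 4.76%), with a median of −0.02. Ret is 1 of the 4. Sema3a, a repellent of axons that lung mesenchyme makes, had 2584, 3041 and 2893 normalized counts in the controls and 3277, 3139.9 and 3331 in the mutants (0.20, SE 0.06). Ntn1, netrin-1, was the lower one, with 534, 436 and 645 in the controls and 395, 439.6 and 405 in the mutants (−0.36, SE 0.12).

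In whole lungs, fewer cells of a type and less RNA per cell cannot be told apart, and the same holds for more. Whether the neuronal difference came with tissue around the lung was not tested. Of the esophagus and foregut list, 9 of 17 genes were tested, none was higher and 1, Dlk1, was lower. The sums over all 17 ran from 12065 to 13017 in the controls and from 11042 to 11874 in the mutants. Most of each sum was Dlk1, which is also listed with the lung mesenchyme, so that the sums do not measure esophageal tissue. Krt15, a keratin of the list, had 53.1, 39.1 and 226 normalized counts in the controls and 51.4, 140 and 35.9 in the mutants. Krt13 was at 0 in control 1, control 2, mutant 1 and mutant 3, and at 3.96 and 0.992 in the other 2 libraries. The number of neuronal genes higher at an unadjusted p under 0.05 was 28 without the 2 libraries of both sexes, 39 with the cardiomyocyte sum as a covariate, and between 32 and 38 when any 1 library was left out.

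Smooth muscle genes were lower in the mutants. Of 23 tested, 13 were lower at an unadjusted p under 0.05, against 4.76% of all genes, and 1, Pcp4, was higher. The median log2 fold change was −0.30, and 21 of the 23 were below 0. None passed the adjusted limma test. Summed, the controls held 75614.6, 72140.3 and 81349 normalized counts and the mutants 63316, 70649 and 64916.5. The groups did not overlap, and mutant 2 came close to control 2. In 6 of the 23 every mutant was below every control, against 7.92% of all genes.

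In several contractile genes the groups overlapped through mutant 2. Acta2, smooth muscle actin, had 7085, 6385 and 8376 normalized counts in the controls and 4212, 6603 and 4628 in the mutants (log2 fold change −0.52, SE 0.15). Myh11, the smooth muscle myosin heavy chain, had 2557, 2008 and 3086 in the controls and 1256, 2249 and 1185 in the mutants (−0.75, SE 0.23). Actg2, the enteric gamma-actin, had 1349, 974 and 1632 in the controls and 621, 1298 and 683 in the mutants (−0.65, SE 0.26). In each of these, mutants 1 and 3 were under all controls and mutant 2 was within them, and mutant 2 was also the mutant with Wnt5a inside the control range. Tagln, an actin-binding protein also known as SM22, and Cnn1, calponin, had the same pattern, with log2 fold changes of −0.49 (SE 0.15) and −0.81 (SE 0.26). Without mutant 2, 18 of the 23 genes were lower at an unadjusted p under 0.05. Without the 2 libraries of both sexes 17 were. Over all genes, 679 were lower in the main fit, 877 without mutant 2 and 499 without those 2 libraries. Mutant 2 is also the library with the most skeletal muscle transcripts and held RNA of both sexes. The part of either in its higher values was not tested.

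Other smooth muscle genes were lower in all 3 mutants. Myocd, myocardin, the coactivator that drives smooth muscle genes, had 329, 255 and 306 normalized counts in the controls and 209, 204 and 209 in the mutants (−0.51, SE 0.10, adjusted p 0.189 by limma and 0.0530 by DESeq2). Smtn, smoothelin of contractile muscle, had 2029, 1881 and 1981 in the controls and 1619, 1626 and 1677 in the mutants (−0.26, SE 0.04), and fell by DESeq2 (adjusted p 0.00819). Srf, the transcription factor that myocardin binds, had 2192, 2304 and 2231 in the controls and 1827, 1916 and 2149 in the mutants (−0.19, SE 0.06). Myl9, the regulatory light chain of smooth muscle myosin, had 1836, 1993 and 3356 in the controls and 1159, 1746 and 1192 in the mutants (−0.78, SE 0.22). In all 4 the groups did not overlap. Pcp4, a calmodulin-binding peptide that neurons also make, had 28.1, 25.1 and 37.7 in the controls and 58.5, 75.4 and 91.9 in the mutants (1.28, SE 0.23).

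SRF binds the CArG box, and the promoters of Myl9 and Srf are shown because both genes were lower and both windows hold that motif. The windows run from 250 bases before to 50 after the start of transcription (RefSeq, GRCm38.p6), capitals mark the CArG boxes, and lower case the rest. The first is at chr2:156775214-156775513 on the plus strand, with 1 match that begins 161 bases before the start site, and the second at chr17:46556113-46556412 on the minus strand, with 2 matches, the first 82 bases before it.
Myl9: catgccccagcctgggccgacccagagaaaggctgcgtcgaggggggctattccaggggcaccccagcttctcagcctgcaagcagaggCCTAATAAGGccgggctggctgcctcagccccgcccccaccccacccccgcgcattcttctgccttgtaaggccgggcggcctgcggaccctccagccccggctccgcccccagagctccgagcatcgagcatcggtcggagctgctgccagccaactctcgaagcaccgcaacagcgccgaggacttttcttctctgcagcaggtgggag
Srf: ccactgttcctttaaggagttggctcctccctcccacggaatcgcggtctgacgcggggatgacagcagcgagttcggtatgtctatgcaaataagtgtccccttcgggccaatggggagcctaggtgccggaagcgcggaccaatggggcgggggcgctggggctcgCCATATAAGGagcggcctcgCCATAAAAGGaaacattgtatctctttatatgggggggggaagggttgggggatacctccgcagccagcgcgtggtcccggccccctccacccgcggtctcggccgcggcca
Of the 19 genes of the smooth muscle list with a promoter in the table, 2 held a CArG box in this window, and of all 32851 promoters 535 did, which is 1.63%. The first count is of genes, any promoter of which could match, and the second of single promoters, so that the shares differ in unit. Both strands were searched. A match is a description of the sequence and says nothing of binding.

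The genes of the actin cytoskeleton, focal adhesions and matrix differed by small amounts. Of 78 actin and myosin genes tested, 16 were lower and 1 was higher at an unadjusted p under 0.05 (background 4.76% and 5.42%), with a median of −0.03. Actb, cytoplasmic beta-actin, had 53458, 53392 and 52376 normalized counts in the controls and 44536, 48822 and 49046 in the mutants (log2 fold change −0.16, SE 0.05). Cfl1, cofilin, which severs actin filaments, had 19104, 19179 and 18709 in the controls and 16766, 17502 and 17288 in the mutants (−0.14, SE 0.04). Both fell by DESeq2 (adjusted p 0.0313 and 0.0230) and neither passed by limma. Actg1, cytoplasmic gamma-actin, ran from 21932 to 23483 in the controls and from 20296 to 22217 in the mutants, and overlapped. Actin genes are close paralogs, and reads that fit several of them make their counts uncertain.

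Of 59 focal adhesion genes tested, 9 were lower and 2 higher at an unadjusted p under 0.05 (background 4.76% and 5.42%), with a median of −0.04. The LIM-domain adaptors led. Csrp1 had 4994, 5189 and 5007 normalized counts in the controls and 4124, 4492 and 4239 in the mutants (−0.24, SE 0.04) and fell by DESeq2 (adjusted p 7.32e-04). Pdlim7 had 1709.5, 1686 and 1718 in the controls and 1394, 1582 and 1439 in the mutants (−0.21, SE 0.05), and Zyx, zyxin, had 3107, 3328 and 3214 in the controls and 2543, 2940.5 and 2854 in the mutants (−0.21, SE 0.06). Csrp1 and Pdlim7 are also made by smooth muscle. The kinase and core adaptors overlapped between the groups. Ptk2, focal adhesion kinase, had a log2 fold change of −0.03 (SE 0.05), Vcl, vinculin, one of −0.06 (SE 0.04) and Pxn, paxillin, one of −0.03 (SE 0.05). Without the 2 libraries of both sexes 5 focal adhesion genes were lower, and the genes lower over all tested fell from 679 to 499.

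Of 56 interstitial matrix genes tested, 8 were lower and 3 higher at an unadjusted p under 0.05 (background 4.76% and 5.42%). Beside Fmod, the genes that fell by DESeq2 were Tgfbi (4510.3, 4059 and 4582 in the controls, 3312, 3858 and 3757 in the mutants, DESeq2 adjusted p 0.0108) and Bgn, the proteoglycan biglycan (4907, 4772 and 5143 in the controls, 3956, 4649 and 3891 in the mutants, DESeq2 adjusted p 0.0240). Pcolce, which enhances procollagen cleavage and was not placed in this list, had 1439, 1425 and 1417 in the controls and 946, 1168 and 1129 in the mutants (−0.41, SE 0.07) and also fell by DESeq2. Vcan, the proteoglycan versican, went the other way, with 11269, 10502 and 10307 in the controls and 13543, 11389 and 12664 in the mutants (0.23, SE 0.06, adjusted p 0.0145 by DESeq2). Col1a1 had 25668, 28907 and 34576 in the controls and 23212, 26749 and 21862 in the mutants (−0.31, SE 0.11), and Fn1, fibronectin, had 9939, 11499 and 13277 in the controls and 9904, 10739 and 9514 in the mutants (−0.19, SE 0.09). Both overlapped, and both were highest in control 3. The number of lower matrix genes depended on the libraries: it was 17 without mutant 2 and 4 without control 3 or without mutant 3. Over all genes, 679 were lower in the main fit, 877 without mutant 2, 634 without control 3 and 560 without mutant 3.

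In the basement membrane, 4 of 38 genes tested were higher and 2 lower at an unadjusted p under 0.05 (background 5.42% and 4.76%). Col18a1, whose C-terminal part is endostatin, had 6076, 6126 and 6126 normalized counts in the controls and 5371, 4837 and 5461 in the mutants (−0.23, SE 0.05), and Smoc2, a matricellular protein, had 1082, 1095 and 1335 in the controls and 904, 943 and 906 in the mutants (−0.34, SE 0.08). Both fell by DESeq2. The laminin chains overlapped between the groups. The log2 fold changes were 0.10 for Lama1 (SE 0.10), 0.09 for Lama5 (SE 0.05), 0.02 for Lamb1 (SE 0.05) and −0.01 for Lamc1 (SE 0.05).

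Epithelial genes were slightly lower. Of 37 tested, 11 were lower at an unadjusted p under 0.05 and none was higher (background 4.76% and 5.42%), with a median log2 fold change of −0.11. The sums were 43123, 42624 and 41575 in the controls and 39570.5, 39413 and 39968 in the mutants and did not overlap. Foxa2, a forkhead factor of endoderm, had 619, 597 and 575 normalized counts in the controls and 465, 521 and 463 in the mutants (−0.31, SE 0.07). Epcam had 3374, 3339 and 3187 in the controls and 2987, 3069 and 3118 in the mutants (−0.11, SE 0.04), and Cdh1, E-cadherin, had 2176, 2154 and 2033 in the controls and 1973, 1976 and 1962 in the mutants (−0.11, SE 0.04). Each of these 3 genes was lower in every mutant than in every control. Foxa1 had a log2 fold change of −0.16 (SE 0.06), Krt18, a keratin of simple epithelia, one of −0.20 (SE 0.07) and Irx3, an Iroquois factor, one of −0.19 (SE 0.06). The epithelial genes whose groups overlapped include Nkx2-1, the factor that specifies lung (−0.11, SE 0.07), Sox9 of the distal tips (−0.16, SE 0.06), Sox2 of the proximal airways (−0.28, SE 0.18) and Shh (−0.04, SE 0.06). Sftpc, surfactant protein C of distal progenitors, had 1384, 1116 and 1188 in the controls and 1074, 913 and 1171 in the mutants (−0.23, SE 0.10). The count of lower epithelial genes was 5 without control 2 and 7 without the 2 libraries of both sexes. Over all genes, 679 were lower in the main fit, and 348 and 499 in these 2 fits.

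**Figure D4:**
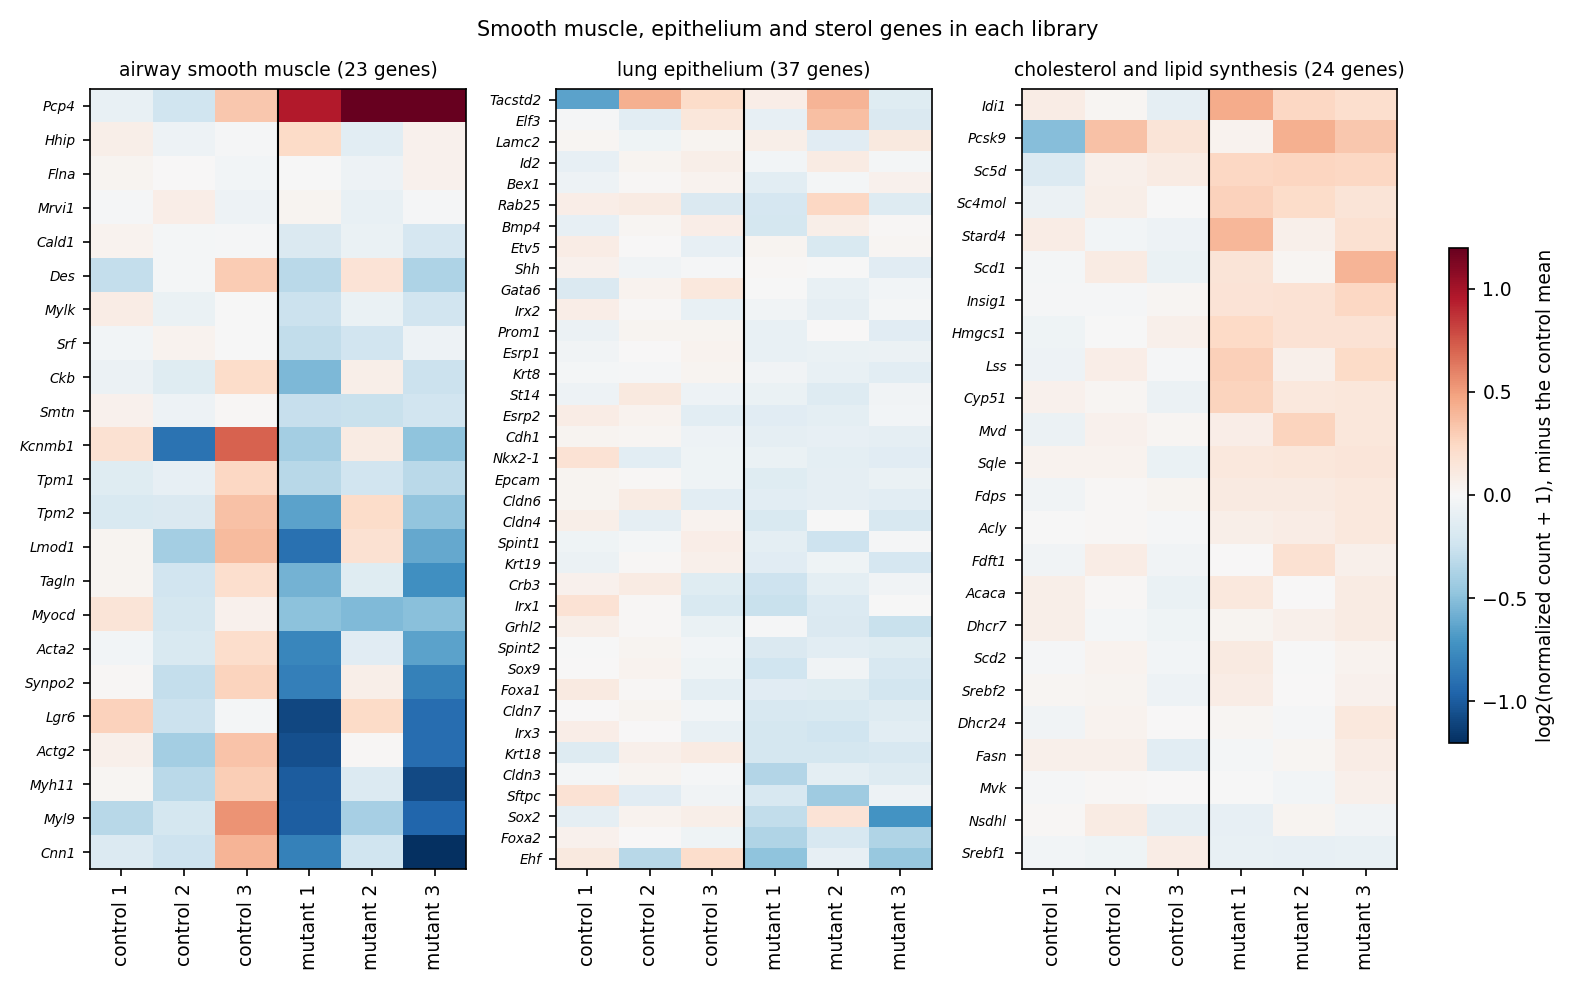
Heat maps of the airway smooth muscle (23 genes), lung epithelium (37) and cholesterol and lipid synthesis (24 of 26) lists in the 6 libraries, drawn as log2(normalized count + 1) minus the control mean. In smooth muscle, mutants 1 and 3 are bluer than mutant 2. Most epithelial rows are pale blue in the mutants, and most sterol rows are pale red.

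Of 36 transcription factors and related genes of the lung mesenchyme tested, 6 were lower, Twist2 among them, and none higher at an unadjusted p under 0.05. The background was 4.76% and 5.42%, and the median of the list was −0.03. Tcf21, a factor of fibroblast progenitors, had 1612, 1501 and 1433 normalized counts in the controls and 1323, 1426 and 1321 in the mutants (−0.16, SE 0.06), and Dlk1, a Notch-like imprinted gene, had 10249, 10395 and 10578 in the controls and 9177, 9687 and 9364 in the mutants (−0.15, SE 0.04). Foxf1 (−0.05, SE 0.04) and Tbx4 (−0.03, SE 0.05), which define lung mesenchyme, overlapped. Of 16 pericyte and Pdgf genes 3 were lower (background 4.76%), among them Kcnj8, a potassium channel of pericytes (156, 159.6 and 183 in the controls, 120.0, 113 and 118 in the mutants). Pdgfrb had a log2 fold change of −0.14 (SE 0.07) and overlapped. Of 36 endothelial genes 6 were lower and none higher (background 4.76% and 5.42%), and Pecam1, which marks endothelial cells, had −0.05 (SE 0.05).

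Of 17 receptors of Wnt5a and their coreceptors tested 2 were lower at an unadjusted p under 0.05 and none was higher (background 4.76% and 5.42%). Ror2 had 803, 781 and 775 normalized counts in the controls and 689, 721 and 730.0 in the mutants (−0.14, SE 0.05), and Lrp5, a coreceptor of the canonical branch, had 2019, 2092 and 1896 in the controls and 1706, 1858 and 1904 in the mutants (−0.14, SE 0.06). Ror1 had a log2 fold change of 0.15 (SE 0.09) and Ryk one of −0.02 (SE 0.04). Of the Wnt ligands 9 were tested, and Wnt5a was the only one with an unadjusted p under 0.05. Wnt11, another noncanonical ligand, had 376, 352 and 394 in the controls and 303, 351 and 341 in the mutants (−0.18, SE 0.08). Mesenchymal Wnt2 (0.13, SE 0.08) and Wnt2b (0.28, SE 0.25) and epithelial Wnt7b (−0.01, SE 0.06) overlapped.

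Of 21 core PCP genes, 1 was higher and 2 were lower, beside 5.42% and 4.76% of all genes. Vangl1 had 460.0, 493 and 500.4 normalized counts in the controls and 473, 461 and 410.4 in the mutants (−0.11, SE 0.07), and Vangl2 had 355, 346 and 308 in the controls and 334, 319 and 351 in the mutants (−0.01, SE 0.08). Celsr1, the epithelial member of its family, had a log2 fold change of −0.12 (SE 0.06) and Celsr2 one of −0.20 (SE 0.08). Celsr3, the member that guides axons, had 15.03, 18.1 and 16.8 in the controls and 25.2, 36.7 and 37.9 in the mutants (0.94, SE 0.26), which is the direction of the neuronal list. Among 26 effectors the one that passed DESeq2 was Mapk10, the JNK isoform of neurons (23.05, 22.1 and 26.8 in the controls, 39.3, 73.4 and 74.9 in the mutants, DESeq2 adjusted p 0.0233). Daam2, a formin that binds Dishevelled, had a log2 fold change of 0.15 (SE 0.05) and Daam1 one of 0.05 (SE 0.05).

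Of 21 targets of canonical Wnt signaling and 15 Hedgehog genes, 0 were at an unadjusted p under 0.05 by limma, and 0 by edgeR and DESeq2. Over all genes 5.42% were higher and 4.76% lower by limma, so that counts of 0 in lists this short say little. Axin2 had 1232, 1131 and 1088 normalized counts in the controls and 1093, 1117 and 1175 in the mutants (−0.03, SE 0.06), and Lef1 had a log2 fold change of −0.06 (SE 0.11), Ctnnb1, beta-catenin, one of 0.03 (SE 0.04), Ptch1 one of 0.21 (SE 0.14) and Gli1 one of 0.02 (SE 0.07). Of 21 Fgf and branching genes 2 were higher and 1 was lower, beside 5.42% and 4.76% of all genes. Fgf9, the ligand of mesothelium and epithelium, had 158, 185 and 149 in the controls and 194, 206 and 221 in the mutants (0.34, SE 0.11), and Fgf10, the mesenchymal ligand that draws out buds, had 891, 882 and 845 in the controls and 968, 900.1 and 873 in the mutants (0.06, SE 0.06). Bmp4 had a log2 fold change of −0.04 (SE 0.08).

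Sterol synthesis genes were higher by small amounts. Of 26 tested, 12 were higher at an unadjusted p under 0.05 and none was lower, against 5.42% and 4.76% of all genes, and 24 were above 0. The median log2 fold change was 0.13. In 11 genes every mutant was above every control, and in 1 (Srebf1) every mutant was below, against 7.65% and 7.92% of all genes. Hmgcs1, the synthase at the head of the mevalonate pathway, had 3813, 3940.3 and 4139 normalized counts in the controls and 4673, 4472 and 4467 in the mutants (0.20, SE 0.04), and was the list's call by DESeq2 (adjusted p 0.0214). Insig1, the sterol sensor of that pathway, had 779, 781 and 799 in the controls and 880.3, 889 and 932 in the mutants (0.20, SE 0.05), and Idi1 had 437, 418 and 381 in the controls and 561, 489 and 474 in the mutants (0.30, SE 0.08). Sc4mol (0.22, SE 0.06) and Cyp51 (0.18, SE 0.05), both demethylases of sterol precursors, did not overlap either. Srebf2, the factor that drives the pathway (0.05, SE 0.04), overlapped. In the other experiments the median of the same list was 0.04 (Sox9-Cre) and 0.09 (Vangl2).

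The promoter of Hmgcs1 is shown since this gene passed DESeq2 and its window holds the core of a sterol regulatory element, CACCCCAC, in capitals. It is at chr13:119690101-119690400 on the plus strand (RefSeq, GRCm38.p6), and the match begins 136 bases before the start of transcription.
Hmgcs1: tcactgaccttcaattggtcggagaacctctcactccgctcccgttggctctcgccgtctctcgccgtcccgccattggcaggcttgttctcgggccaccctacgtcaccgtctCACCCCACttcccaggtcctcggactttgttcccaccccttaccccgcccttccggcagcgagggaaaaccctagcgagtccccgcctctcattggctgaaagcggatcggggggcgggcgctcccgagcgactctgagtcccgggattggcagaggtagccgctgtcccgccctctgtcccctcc
Of 16 list members with a promoter in the table, 1 held these letters on either strand, and of all 32851 promoters 942 did, which is 2.87%. Here too the first count is of genes and the second of single promoters.

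In lists of metabolism and translation, the number of lower genes depended on single libraries. Of 28 genes of hypoxia and glycolysis 8 were lower and none higher, of 75 of oxidative phosphorylation 16 and none, and of 78 ribosomal protein genes 16 were lower and 3 higher. Over all genes 4.76% were lower and 5.42% higher. Slc2a1, the glucose transporter GLUT1, had 1239.6, 1314 and 1339.6 normalized counts in the controls and 1116, 1125 and 1006 in the mutants (−0.26, SE 0.06). Pkm, pyruvate kinase, had 19331, 20857 and 19038 in the controls and 17169, 18748 and 16294 in the mutants (−0.18, SE 0.06). Rpl36 and Rpl21 fell by DESeq2 (adjusted p 0.00428 and 0.0363), but ribosomal protein genes have near-identical pseudogenes, and their counts are uncertain. Gm5506, a copy of the enolase gene Eno1 (1097, 1172 and 396 in the controls, 226, 257 and 309.6 in the mutants), is uncertain for the same reason. Without mutant 2 the lower counts became 16, 27 and 23 in the 3 lists, while the genes lower over all tested rose from 679 to 877. Without mutant 3 the hypoxia count was 2, without control 2 that of oxidative phosphorylation was 5, and without control 1, control 2 or mutant 1 that of the ribosome was 6. The genes lower over all were 560 without mutant 3, 348 without control 2, 650 without control 1 and 387 without mutant 1. The log2 fold change of a gene also had a Spearman correlation of 0.15 with transcript length over 13422 genes, given as a description, since genes share the libraries. With that trend removed, 10 ribosomal genes were lower.

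Most calls lay outside the lists: 52 of the 77 genes that DESeq2 called higher and 10 of the 23 that it called lower were in none of them. Foxp4, a forkhead factor of airway epithelium, had 3360.0, 3279.9 and 2980.5 normalized counts in the controls and 2416, 2829 and 2638 in the mutants and fell by DESeq2 (adjusted p 0.00581), as did Hcn4, the pacemaker channel of heart (52.1, 126 and 105 in the controls, 49.4, 35.7 and 41.9 in the mutants, DESeq2 adjusted p 0.0467). For Hcn4 the cardiomyocyte sums above moved across the same libraries, with the highest in controls 2 and 3, and their part was not tested. Slitrk6, a membrane protein of epithelia and of neurons, had 1356, 1464 and 1352 in the controls and 1849, 1548 and 1810.4 in the mutants, and Malat1, a nuclear noncoding RNA, had 3060.3, 2753 and 3347 in the controls and 4449, 4059 and 3586 in the mutants. Both rose by DESeq2 (adjusted p 0.00819 and 1.49e-04) and both were named after their values were seen. Alb, albumin made by liver, had 104, 49.2 and 37.7 in the controls and 35.3, 10.9 and 17.97 in the mutants. Of 8 liver genes tested, 4 were lower at an unadjusted p under 0.05 (4.76% of all genes were). Dlk1, which is also listed with the lung mesenchyme, is 1 of the 4. Others had few reads, such as Apoa1 with 6.05 to 19.8 normalized counts over the libraries. Apoc3 was at 0 in all 6 libraries.

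The other experiments, whose libraries and controls are separate, give these genes in separate lungs. The 77 genes that DESeq2 called higher include the 5 that reached the minimum count only in mutants of the mesenchymal deletion. Of the 77, 68 had a log2 fold change below 0 in the Sox9-Cre experiment, where 49.02% of all genes did, and 4 of the 77 had an unadjusted p under 0.05. In the Vangl2 mutants 67 of the 74 tested were above 0, where 48.8% of all genes were, and 19 had an unadjusted p under 0.05. For the neuronal list the median log2 fold change was 0.93 with the mesenchymal deletion, −0.60 over 47 genes with the epithelial deletion and 0.44 over 46 genes with Vangl2 loss. The differences between experiments were not tested. Counts of lower and higher neuronal genes at an unadjusted p under 0.05 were 7 and 0 in the Sox9-Cre mutants and 0 and 8 in the Vangl2 mutants, where 2.76% of all genes were lower and 12.1% higher, respectively.

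Neuronal transcripts also varied between libraries of 1 group in the Sox9-Cre experiment. Prph had 102, 220.0 and 285 normalized counts in its controls and 350.4, 32.2 and 45.1 in its mutants. Slc17a6 had 6.94, 57.7 and 61.8 in these controls and 82.0, 0 and 0 in these mutants. Mutant 1 there was above every control, and mutants 2 and 3 were below. The means of Slc17a6 with the mesenchymal deletion were 4.64 in the controls and 89.1 in the mutants.

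For smooth muscle, the medians were −0.30 with the mesenchymal deletion, −0.03 with the epithelial deletion and −0.06 with Vangl2 loss. Of the 23 genes, 3 were lower at an unadjusted p under 0.05 in the Sox9-Cre mutants (2.76% of all genes were) and 7 in the Vangl2 mutants (8.64% were), where 3 were higher. In the Vangl2 mutants Actg2 had a log2 fold change of −0.77, Tagln one of −0.64, Cnn1 one of −0.51 and Myl9 one of −0.43. Members that were not lower there include Myocd (0.56), Smtn (0.06) and Srf (0.04), all lower in every mutant of the mesenchymal deletion. Acta2 had 5983, 6946 and 6430.3 normalized counts in the Sox9-Cre controls and 6155, 6748 and 6101 in the Sox9-Cre mutants (log2 fold change −0.03). In the Vangl2 experiment Acta2 had 4924, 5709 and 6782 in the controls and 3234, 4332 and 5086 in the mutants (−0.47, unadjusted p 0.0316). Of the 23 genes that DESeq2 called lower with the mesenchymal deletion, 16 were below 0 in the Sox9-Cre experiment, where 49.02% of all genes were, and 14 in the Vangl2 experiment, where 51.2% were. Epithelial medians were −0.11, 0.00 and −0.14.

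**Figure D5:**
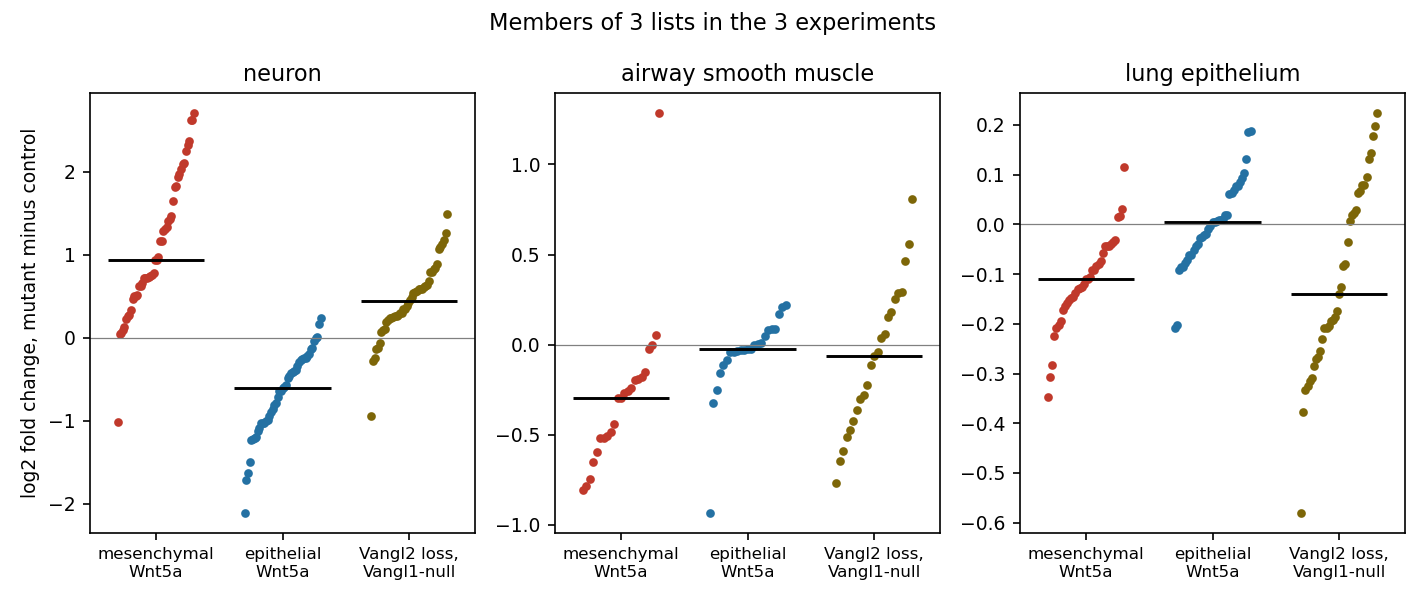
Log2 fold changes (mutant minus control, vertical axes with their own scales) of the members of 3 lists in the 3 experiments, each point a gene and each black bar the median. Neuronal genes lie mostly above 0 with the mesenchymal deletion (median 0.93), below 0 with the epithelial deletion (−0.60) and above 0 with Vangl2 loss (0.44), and smooth muscle genes have their lowest median with the mesenchymal deletion (−0.30).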

How the data were processed

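RNA of whole lungs was sequenced in bulk. Per the submitters' processing notes, reads were handled with Trim Galore, HISAT2, featureCounts and DESeq2 on mm10, with versions not given in the sources used here. The authors deposited gene counts divided by DESeq2 size factors, a normalized signal per gene and library, in 1 table per experiment. Columns of samples outside the series numbered 0. The tables also hold the authors' fold changes and p-values, which were not used. Of 23420 rows, 23418 had distinct names and 27 names had been changed to dates.

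Every deposited value was a whole multiple of 1 step per library (100% within 0.001 reads), which gave back 15945393 to 16102180 reads on genes. The steps lay so near 1 that an automatic check of them could make no call. limma 3.58.1 (R 4.3.3, trend, Benjamini-Hochberg adjustment) was run on log2(normalized count + 1) of genes that reached 10 normalized counts in 3 or more of 6 libraries, with a threshold of 0.05. A fold change on this scale understates the change of low genes. edgeR 4.0.16 (quasi-likelihood, TMM) and DESeq2 1.42.0 were run on the recovered reads as alternatives, beside other pseudocounts, filters and scalings, a replicate block and leaving out each library. The code was tested on simulated data.

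Lengths and coordinates came from GENCODE M21 (GRCm38) and promoters from RefSeq. Lists (52) and genes were chosen with earlier results of these data known. Genes named are Wnt5a and Twist2, those that passed limma, at most 12 highest and 12 lowest that passed DESeq2 or edgeR without overlap, the 10 highest and 10 lowest with an unadjusted p under 0.01, no overlap and a mean of at least 50, the first 3 of each list with up to 4 of smallest p, and genes the study names. Kif5a, Nefm, Hand2, Dbh, Syt1, Cplx1, Slc18a3, Erbb3, Cnn1, Actg2, Srf, Sftpc, Srebf2 and Wnt7b lie outside this rule and were named after their values were seen. A few genes are not reported here, and count only in list totals.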

Additional observations from a re-analysis of the deposited data

How the results depend on the processing

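Of 2589 values of 145 named genes under the alternatives, 2442 kept their direction and side of the threshold, 94 passed it where the main test did not, 10 no longer passed (Rab6b and Fmod, 5 each) and 43 of genes at an unadjusted p of 0.05 or more changed sign. The genes called numbered 100 by DESeq2, 16 with the replicate block, 5 with cardiomyocyte transcripts as a covariate and 0 by limma without a trend, where 1212 had an unadjusted p under 0.05. Leaving out 1 library gave 0 to 54 calls, with 0 without control 1, control 2 or mutant 3 (1419, 814 and 1189 genes at an unadjusted p under 0.05) and 54 without mutant 1. Over these fits the genes at an unadjusted p under 0.05 ran from 814 to 1899, and the log2 fold change of Wnt5a from −0.78 to −0.32. The cause was not tested.

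Members lower were, by limma without a trend, 6 in lung epithelium, 5 in interstitial matrix, 3 in hypoxia, 5 in the ribosome and 5 in oxidative phosphorylation. Without the 2 libraries of both sexes they were 7 in epithelium, 5 in focal adhesion, 16 in matrix, 14 in hypoxia and 10 in the ribosome. With cardiomyocyte transcripts as a covariate hypoxia had 4 and oxidative phosphorylation 10, and with the length trend removed the ribosome had 10. Over all genes, 679 were lower in the main fit, 525 without a trend and 499 without those 2 libraries. With the covariate 619 were lower, and with the length trend removed 615. Leaving out the libraries of both sexes and adding that covariate were chosen after the data were seen. Leaving out 1 library gave 32 to 38 higher neuronal and 8 to 11 higher sterol genes, and lower genes of 11 to 18 in smooth muscle, 5 to 12 in epithelium, 10 to 16 in actin, 7 to 12 in focal adhesion, 4 to 17 in matrix, 2 to 16 in hypoxia, 6 to 23 in the ribosome and 5 to 27 in oxidative phosphorylation. Over all genes these fits gave 466 to 1022 higher and 348 to 877 lower.

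Same-numbered libraries did not deviate together (correlations of 0.073, −0.073 and −0.22), which gives no sign of a pairing by number. With 3 libraries in a group these values cannot exclude such a pairing. With the replicate block 16 genes were called, 14 higher and 2 lower. No control correlated best with the mutant of its own number.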
